A study of Mus musculus with 6 samples.

Results

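DNA replication genes were followed in mouse granulosa cells (GCs) 6 h after cyclophosphamide (CTX). They are 46 genes of origin licensing, the replicative helicase, the polymerases, the sliding clamp and its loader, nucleotide supply and the E2F regulators of all of these, and were found by gene symbol among the 54532 genes of the deposited table, with 1 row for each. RNA-seq was done on 6 samples, 3 from PBS-treated and 3 from CTX-treated mice, and every sample pooled the GCs of 3 mice. All mice were ICR females of 3 weeks that had received 5 IU of PMSG, a gonadotropin that drives follicle growth, 22 h before a single injection of PBS or of 120 mg/kg CTX, so the controls carry the PMSG stimulus too. Because samples are pools, the spread between replicates is a spread between pools and not between mice.

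Before S phase, the origin recognition complex, CDC6 and CDT1 load the MCM2-7 ring onto DNA, which is called licensing. CDC45 and GINS then turn the ring into the active helicase, and polymerases α, δ and ε copy the strands with the PCNA clamp, which the RFC complex loads. Most of these genes are transcribed by E2F factors at the G1/S boundary, while E2F7 and E2F8 repress the same targets later in S phase. In PMSG-primed follicles GCs are among the dividing cells of the ovary, and CTX is an alkylating agent whose metabolites crosslink DNA.

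Promoter windows are shown first because the E2F site is what many of these genes share apart from their function. RefSeq windows on GRCm38.p6, from 250 bases before to 50 bases after an annotated start, were matched by symbol for 38 of the 46 genes, with 45 windows in all, and Gmnn, Mcm4, Gins1, Gins2, Gins4, Prim2, Pole and Rfc2 had none. The E2F letters TTTCCCGC, TTTCGCGC, TTTGCCGC or TTTGGCGC, on either strand, stood in 15 of the 45 windows (33.3%), against 744 of 32851 windows of all genes (2.26%). The 15 genes were Orc1, Cdc6, Cdt1, Mcm3, Mcm5, Mcm6, Mcm7, Gins3, Pola1, Pold1, Pole2, Rfc3, Lig1, E2f2 and E2f7. The CHR letters TTTGAA or TTCGAA, an element known from genes of mitosis, stood in 9 of the 45 windows (20.0%), close to the 19.2% of all windows. In 28 windows of a list of mitosis genes the order was the other way round, with CHR letters in 21 and E2F letters in 1. Below are the 4 genes whose E2F letters lie before the RefSeq start and outside both the gene as the deposited table places it and any annotated exon of GENCODE M21, written 5′ to 3′ on the strand of the gene, with E2F letters in capitals.
Mcm5 promoter, chr8:75109259-75109508, plus strand: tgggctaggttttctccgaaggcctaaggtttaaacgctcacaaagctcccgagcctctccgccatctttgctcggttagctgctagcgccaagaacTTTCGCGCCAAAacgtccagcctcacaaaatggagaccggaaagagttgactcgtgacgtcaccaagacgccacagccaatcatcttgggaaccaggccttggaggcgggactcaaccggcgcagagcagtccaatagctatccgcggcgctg
Mcm6 promoter, chr1:128359706-128359955, minus strand: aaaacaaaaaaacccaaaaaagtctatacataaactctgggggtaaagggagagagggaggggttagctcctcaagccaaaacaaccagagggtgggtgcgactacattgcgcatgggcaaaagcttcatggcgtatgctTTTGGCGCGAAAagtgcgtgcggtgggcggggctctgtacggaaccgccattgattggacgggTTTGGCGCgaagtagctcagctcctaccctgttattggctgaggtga
Pola1 promoter, chrX:93632156-93632405, minus strand: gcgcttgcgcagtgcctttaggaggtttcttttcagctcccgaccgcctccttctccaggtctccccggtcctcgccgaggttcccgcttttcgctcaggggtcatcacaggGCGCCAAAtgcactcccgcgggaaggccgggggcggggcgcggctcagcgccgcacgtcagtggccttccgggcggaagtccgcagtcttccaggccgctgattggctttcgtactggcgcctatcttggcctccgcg
E2f7 promoter, chr10:110745189-110745438, plus strand: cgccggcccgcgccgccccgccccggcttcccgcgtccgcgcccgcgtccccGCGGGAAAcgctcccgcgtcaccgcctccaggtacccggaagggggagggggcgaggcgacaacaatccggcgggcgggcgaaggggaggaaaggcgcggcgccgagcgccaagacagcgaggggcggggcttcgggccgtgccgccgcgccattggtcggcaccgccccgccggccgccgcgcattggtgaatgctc
In Mcm5 the match that begins 153 bases before the start overlaps a match on the other strand that begins at 149 bases. In Mcm6 the matches begin at 110, 106 and 47 bases before the start, the first pair overlapping in the same way. Those of Pola1 and E2f7 begin at 138 and 198 bases. A match describes letters and is not evidence of binding. Only those exact letters were sought, so a window without a match may still hold an E2F site written otherwise.

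The file gives FPKM, read counts scaled to gene length and sequencing depth, so levels can be compared between genes only roughly. For 45 of the 46 genes that length equals all exon bases of GENCODE M21, which may exceed the length of the transcripts expressed. For Pola2 it is 2872 bases, against 8294 in GENCODE M21. All 46 genes were expressed, with a mean FPKM over the 6 samples of at least 0.5, the minimum for testing, and with 71 to 5553 reads per gene and sample. Sequencing depth was 16005869 to 18455011 reads on genes per sample. The defining markers of GCs were present, and the 10 granulosa markers, Fshr, Cyp19a1 and Inha among them, summed to 10926 to 13468 FPKM per sample. The highest sum of another cell type was 467 FPKM, for erythroid genes. CTX replicate 2 stood apart from the rest, at 74.7 on the first principal component against -26.6 to 13.2 for the other 5 samples. Fold changes of some genes are given with and without that sample.

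In the PBS samples, Pcna and Mcm3 had the highest FPKM of the 46 genes. Pcna, the sliding clamp, had 66.7 ± 3.57 FPKM in the PBS samples (mean ± SD, n = 3), followed by Mcm3 at 58.5 ± 2.73 FPKM. Dut, the dUTPase that keeps uracil out of DNA, had 43.3 ± 3.54 FPKM, Mcm6 40.2 ± 1.58 FPKM and Mcm7 38.9 ± 1.41 FPKM. In that order the PBS samples of Dut overlapped those of Mcm6, and those of Mcm6 overlapped those of Mcm7, while Dut and Mcm7 did not overlap. The 6 subunits of the MCM2-7 ring, which stand in equal numbers in the protein complex, ranged from 25.5 FPKM for Mcm2 to 58.5 FPKM for Mcm3. Much of that range lies in the lengths used, 6956 bases for Mcm2 and 3752 for Mcm3. Their reads per PBS sample were 2993 to 3208 and 3716 to 3915. At the low end stood Orc1, the largest subunit of the origin recognition complex, at 1.90 ± 0.122 FPKM, and Fen1, the flap endonuclease of Okazaki fragment processing, at 2.31 ± 0.0687 FPKM. The level of Fen1 needs care, because 84.2% of its exon bases are also exon bases of genes on the opposite strand, Tmem258 and Gm10143, and reads that overlap both genes may have been left out or shared. The same holds for 67.3% of Gins2, which overlaps Gse1. In all, 9 of the 46 genes share over 10% of their exon bases with another gene.

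**Figure D1:**
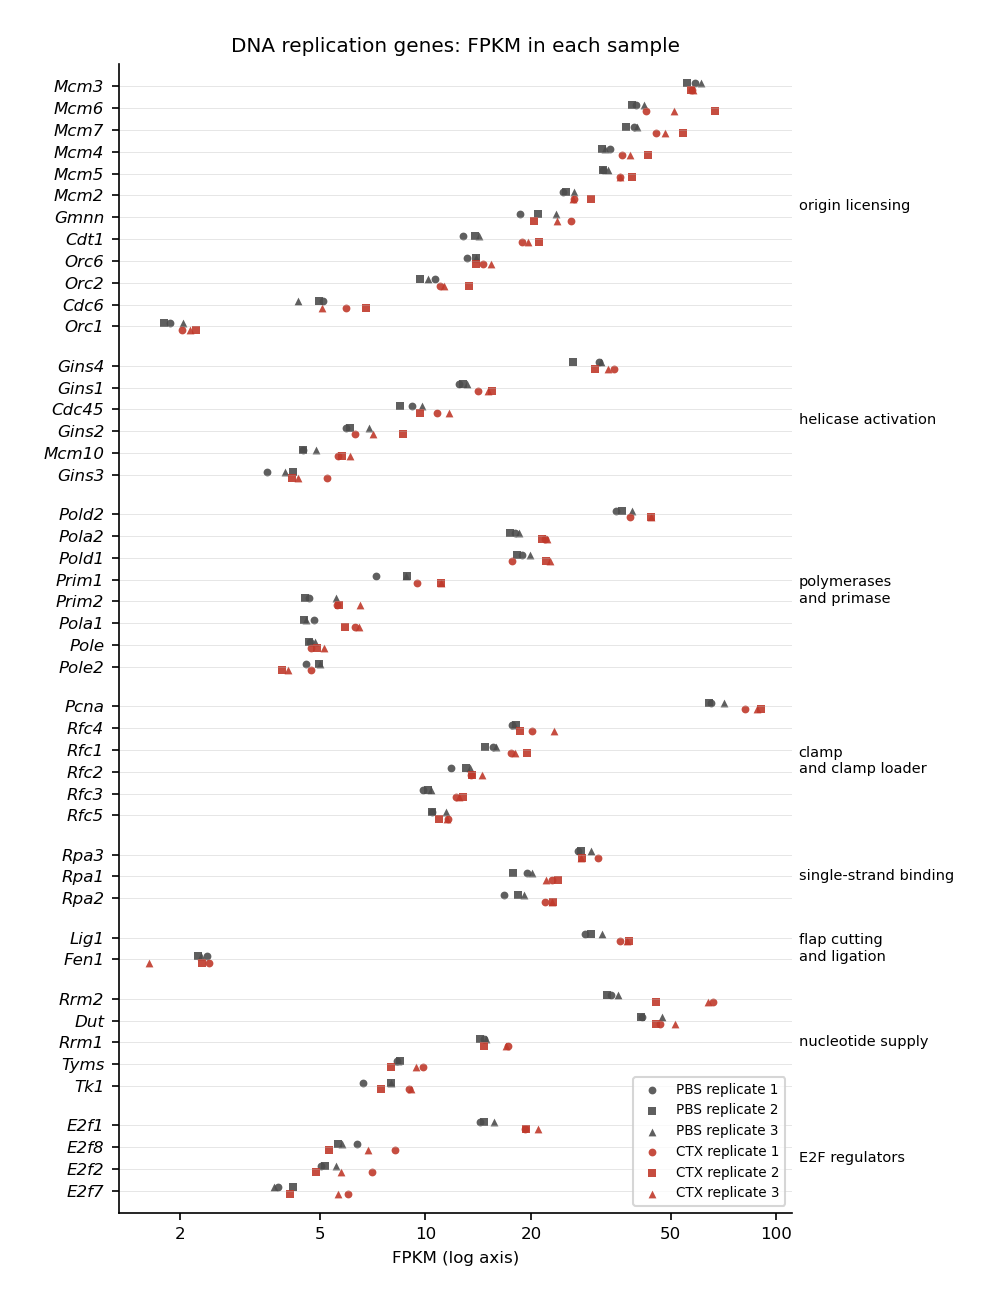
FPKM of the 46 DNA replication genes (log axis) in the 3 PBS samples (grey) and the 3 CTX samples (red), by role, with 1 symbol per replicate number and each point 1 sample. Levels run from about the 1.90 FPKM of Orc1 to the 66.7 FPKM of Pcna in PBS samples, and in 22 of the 46 genes all red points lie to the right of all grey ones.

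Differences after CTX treatment were small and lay mostly on the higher side. On the log2(FPKM + 0.1) scale, the median fold change of the 46 genes was 0.21, against -0.01 over all 14463 genes tested, and 43 of the 46 values were above 0, against 48.6% of all genes. Mcm3, Pole2 and Fen1, the other 3, were below 0, against 51.4% of all genes. The 3 CTX samples lay above the 3 PBS samples in 22 of the 46 genes, against 15.0% of all genes, and below them in 0, against 14.1%. Only Cdt1 passed an adjusted p-value of 0.05 in limma, and 1 of 46 is close to the 1.40% of all genes that were called higher (1.76% in either direction). None changed by more than 2-fold at that threshold, the criterion for a differentially expressed gene (DEG) in the study's methods. In the limma fit used here 0.961% of all genes met it, a share that is not the study's own DEG count, which came from other processing. At an unadjusted p-value below 0.05, limma gave 18 genes higher, against 10.5% of all genes, and 0 lower, against 9.10%. The genes share the same 6 samples and do not vary independently, so these counts are given without a p-value. Bulk RNA cannot tell a change in the number of cells in S phase from a change in RNA per cell.

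Leaving out samples changed the counts more than the median. Without CTX replicate 2, 5 genes passed the adjusted p-value, namely Cdt1, Pola1, Rrm2, E2f1 and E2f7, against 2.48% of all genes called higher in that fit. In 34 genes both remaining CTX samples lay above the PBS samples, against 19.3% of all genes. Without any 1 of the 3 PBS samples or without CTX replicate 3, 0 genes passed the adjusted p-value, against 0.484% to 0.733% of all genes. In those fits 13 to 19 had an unadjusted p-value below 0.05, and the share of all genes at that threshold was not worked out. Without CTX replicate 2, the log2 fold change went from 0.22 to 0.14 for Orc2, from 0.29 to 0.19 for Cdc6, from 0.11 to 0.05 for Mcm2, from 0.21 to 0.08 for Gins2 and from 0.12 to 0.08 for Pold1. It went from 0.15 to 0.24 for Gmnn, from 0.11 to 0.20 for Tyms, from 0.18 to 0.27 for Tk1, from 0.15 to 0.27 for E2f2 and from 0.17 to 0.34 for E2f8. None of these 10 genes passed the adjusted p-value in limma in either fit. The median fold change stayed between 0.19 and 0.24 on the log2 scale in all 6 fits that left out a sample. Relative to the PBS mean, the median gene lay at 0.21, 0.22 and 0.23 on the log2 scale in CTX replicates 1, 2 and 3, and at -0.04, -0.03 and 0.06 in PBS replicates 1, 2 and 3. All 3 CTX samples thus stood above all 3 PBS samples by that measure.

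**Figure D2:**
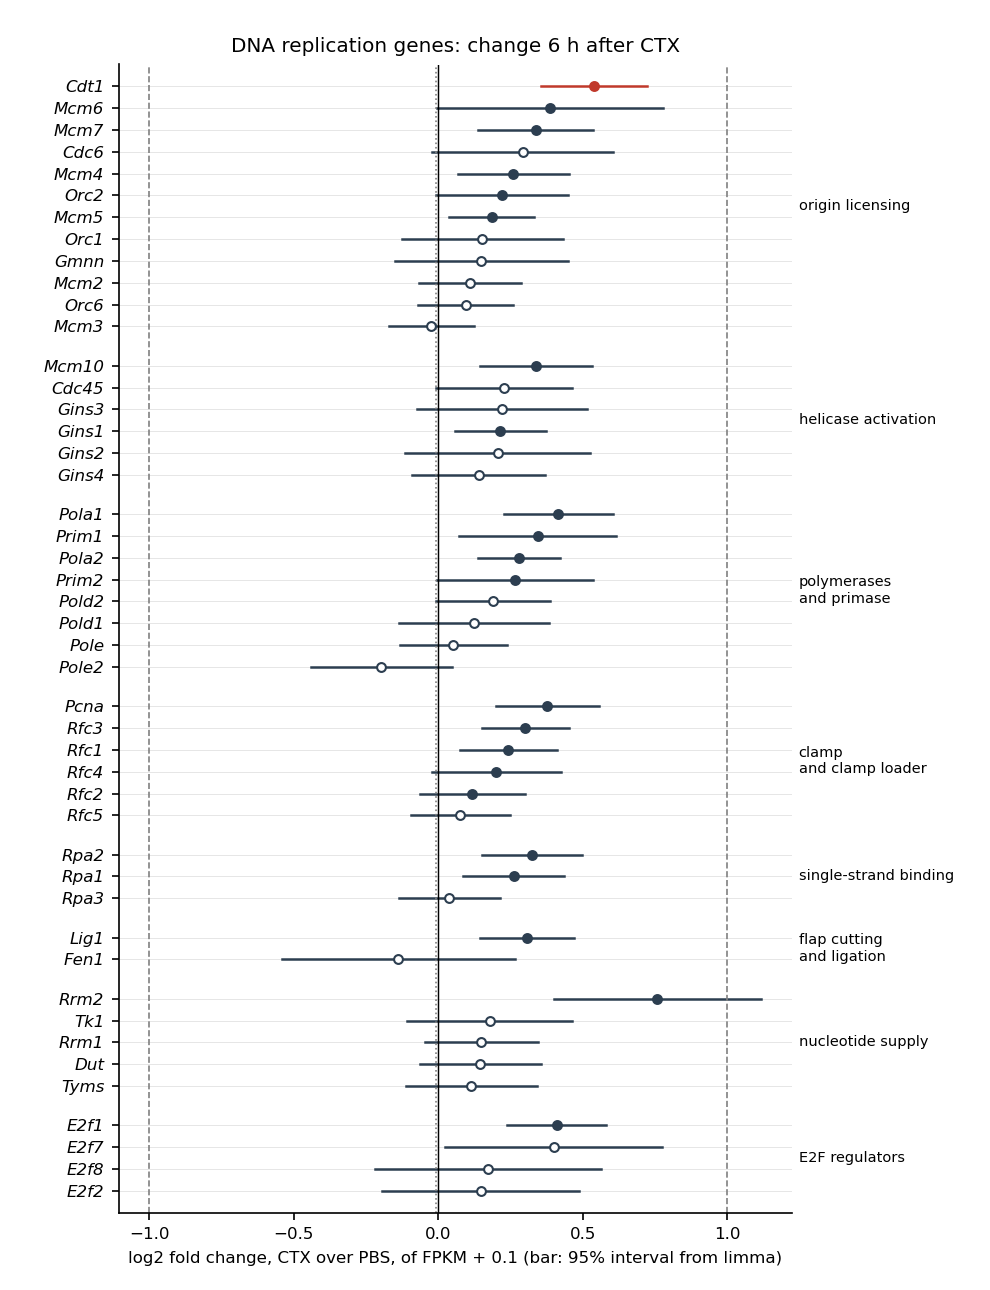
Log2 fold change of FPKM + 0.1, CTX over PBS, for each of the 46 genes by role, with the 95% interval from limma as a bar. Filled points mark genes whose 3 CTX samples do not overlap the 3 PBS samples, red marks Cdt1 with its adjusted p-value of 0.026, and dashed lines mark 2-fold. The points lean to the right of 0, where the dotted line marks the median of all genes tested, and the interval of Rrm2 alone reaches the dashed line.

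Among the licensing genes, Cdt1 rose. It encodes the factor that brings the MCM ring to origins and is destroyed once S phase begins. Cdt1 (ENSMUSG00000006585, chromosome 8, 122568015 to 122573554, GRCm38, plus strand) had 12.8, 13.8 and 14.3 FPKM in PBS replicates 1, 2 and 3, and 18.8, 21.1 and 19.6 FPKM in CTX replicates 1, 2 and 3. Every CTX sample was thus higher than every PBS sample, with a gap wider than the range of either group. Its log2 fold change was 0.54 (standard error 0.08, 95% interval 0.36 to 0.72, adjusted p = 0.026 by limma), or 1.45-fold. The call was kept in 13 of 19 alternatives and lost without PBS replicate 1, 2 or 3, without CTX replicate 3, with the replicate block and without the trend, with adjusted p-values of 3.5e-04 to 0.149 from limma over all 19. Gmnn encodes geminin, the inhibitor of CDT1. It had 18.6 to 23.6 FPKM after PBS and 20.4 to 26.0 FPKM after CTX, and the groups overlapped (log2 fold change 0.15, 95% interval -0.15 to 0.45).

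Of the other loading factors, Orc2 had 9.64 to 10.7 FPKM after PBS and 11.0 to 13.3 FPKM after CTX, without overlap. Cdc6, the ATPase that recruits CDT1 and the MCM ring, had 5.11, 4.97 and 4.33 FPKM after PBS and 5.93, 6.78 and 5.07 FPKM after CTX, and overlapped by 1 CTX sample. Orc1 and Orc6 overlapped too, with log2 fold changes of 0.15 and 0.10.

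None of the 6 ring subunits passed the adjusted p-value in limma, 3 of them had an unadjusted p-value below 0.05, and 4 were free of overlap. Mcm7 had 39.3, 37.3 and 40.1 FPKM after PBS and 45.5, 54.2 and 48.1 FPKM after CTX (log2 fold change 0.34, adjusted p = 0.118 from limma). Mcm4, from 31.9 to 33.6 FPKM after PBS and 36.2 to 43.0 FPKM after CTX, and Mcm5, from 32.1 to 33.1 FPKM and 35.9 to 38.8 FPKM, were also free of overlap. In Mcm6 the CTX samples were far apart, with 42.5, 67.1 and 51.0 FPKM against 39.9, 38.8 and 41.9 FPKM after PBS, and CTX replicate 2 held the highest value. Without that sample its log2 fold change went from 0.39 to 0.21. Mcm2 had a log2 fold change of 0.11 with overlapping groups. Mcm3, the subunit with the highest FPKM after PBS, had 58.5, 55.7 and 61.1 FPKM after PBS and 57.4, 57.1 and 57.9 FPKM after CTX, with a 95% interval of -0.17 to 0.12 for its log2 fold change of -0.02. CTX replicate 2 was the highest CTX sample for Mcm2, Mcm4, Mcm5, Mcm6 and Mcm7.

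The genes that turn the loaded ring into a helicase all had values above 0. Mcm10, which helps to activate the helicase, had 4.47, 4.49 and 4.87 FPKM after PBS and 5.65, 5.79 and 6.12 FPKM after CTX, without overlap (log2 fold change 0.34, adjusted p = 0.111 from limma). Gins1, a GINS subunit, had 12.5 to 13.1 FPKM after PBS and 14.1 to 15.5 FPKM after CTX. Cdc45 had 8.46 to 9.76 FPKM after PBS and 9.68 to 11.7 FPKM after CTX, so that its groups touched. The remaining GINS genes, Gins2, Gins3 and Gins4, overlapped between groups, with log2 fold changes of 0.21, 0.22 and 0.14.

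Polymerase α and its primase, which start each new strand, are set beside polymerase ε, the main leading-strand enzyme. Pola1, the catalytic subunit of polymerase α, had 4.83, 4.52 and 4.56 FPKM after PBS and 6.29, 5.89 and 6.47 FPKM after CTX, without overlap (log2 fold change 0.41, 95% interval 0.23 to 0.60, adjusted p = 0.064 from limma). Pola2, its accessory subunit, had 17.4 to 18.5 FPKM after PBS and 21.4 to 22.2 FPKM after CTX (log2 fold change 0.28, adjusted p = 0.085 from limma). The primase genes Prim1 and Prim2 were higher in every CTX sample as well, at log2 fold changes of 0.34 and 0.27. All 4 genes of this complex were thus higher in every CTX sample, against 15.0% of all genes. Pold1 and Pold2, of polymerase δ, overlapped between groups, with log2 fold changes of 0.12 and 0.19. Pole, the catalytic subunit of polymerase ε, had 4.68 to 4.83 FPKM after PBS and 4.71 to 5.14 FPKM after CTX (log2 fold change 0.05, 95% interval -0.13 to 0.24). Its partner Pole2 had the lowest value of the 46 genes, with 4.58, 4.98 and 5.01 FPKM after PBS and 4.71, 3.91 and 4.07 FPKM after CTX (log2 fold change -0.20, 95% interval -0.44 to 0.05), and 1 CTX sample lay inside the PBS range. The difference between the polymerases was not itself tested.

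Pcna, which is also induced by p53 and serves in repair, had 65.0, 64.4 and 70.8 FPKM after PBS and 81.4, 90.7 and 88.0 FPKM after CTX. The groups were well apart, with a log2 fold change of 0.38 (95% interval 0.20 to 0.55, adjusted p = 0.073 from limma). A near copy, Pcna-ps2 on chromosome 19, was listed at 32.1 to 35.2 FPKM after PBS and 42.5 to 48.6 FPKM after CTX, and reads may be split between the copies, so the level of Pcna is uncertain. Of the 5 clamp loader genes, Rfc1, Rfc2, Rfc3 and Rfc4 were higher in every CTX sample, against 15.0% of all genes. Rfc3 had the lowest adjusted p of them, with 9.84 to 10.4 FPKM after PBS and 12.3 to 12.8 FPKM after CTX (log2 fold change 0.30, adjusted p = 0.081 from limma). Rfc5 overlapped between groups, at 10.4 to 11.5 FPKM and 10.9 to 11.6 FPKM.

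RPA coats single-stranded DNA at forks and at damage. Rpa1, its large subunit, had 17.8 to 20.2 FPKM after PBS and 22.1 to 23.9 FPKM after CTX. Rpa2 had 16.8 to 19.1 FPKM after PBS and 21.9 to 23.1 FPKM after CTX, and both were free of overlap, with log2 fold changes of 0.26 and 0.33. Rpa3, the small subunit, did not follow, at 27.2 to 29.6 FPKM after PBS and 27.8 to 31.0 FPKM after CTX (log2 fold change 0.04, 95% interval -0.14 to 0.21). Lig1, the ligase that seals Okazaki fragments, had 28.6 to 31.9 FPKM after PBS and 36.0 to 38.0 FPKM after CTX (log2 fold change 0.31, adjusted p = 0.094 from limma). Fen1, which cuts the flap just before that step, had 2.39, 2.25 and 2.29 FPKM after PBS and 2.41, 2.30 and 1.64 FPKM after CTX, so that its negative value rested on CTX replicate 3, without which its log2 fold change went from -0.14 to 0.03.

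The highest fold change was that of Rrm2 (chromosome 12, 24708241 to 24714146, plus strand), the regulated subunit of ribonucleotide reductase, which makes deoxynucleotides for S phase. It had 33.8, 33.0 and 35.4 FPKM after PBS and 66.0, 45.3 and 64.0 FPKM after CTX. CTX replicates 1 and 3 stood near each other, and replicate 2 lay between them and the PBS samples. The log2 fold change was 0.76 (standard error 0.15, 95% interval 0.40 to 1.12), and with that spread it missed the threshold (adjusted p = 0.073 by limma). Without CTX replicate 2 the log2 fold change was 0.93 with an adjusted p = 0.0016 by limma. Rrm1, the catalytic subunit, had 14.3 to 14.9 FPKM after PBS and 14.7 to 17.2 FPKM after CTX, with CTX replicate 2 inside the PBS range. Rrm2b, a reductase subunit induced by p53 that is not among the 46 genes, had 2.09 to 2.17 FPKM after PBS and 1.66 to 2.31 FPKM after CTX (log2 fold change -0.08, 95% interval -0.44 to 0.28). This gene does not stand for p53 targets at large, since the study reported a p53 pathway and Cdkn1a as upregulated. Here Cdkn1a had 8.86 to 9.43 FPKM after PBS and 42.7 to 66.8 FPKM after CTX (log2 fold change 2.65, adjusted p = 0.0019 from limma). The remaining genes of nucleotide supply, Tyms (thymidylate synthase), Tk1 (thymidine kinase) and Dut, overlapped between groups, with log2 fold changes of 0.11, 0.18 and 0.15.

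Among the regulators, E2f1, an activator of the whole program, had 14.3, 14.7 and 15.7 FPKM after PBS and 19.2, 19.4 and 21.0 FPKM after CTX. The groups were well apart, and the gene lay at the threshold, at an adjusted p = 0.051 by limma, and passed it in 6 of 19 alternatives. Its log2 fold change was 0.41 (95% interval 0.24 to 0.58). The other 3 regulators overlapped between groups. In each of them CTX replicate 2 was the lowest CTX sample, inside the PBS range for E2f7 and below it for E2f2 and E2f8. E2f7, a repressor, had 3.81, 4.21 and 3.71 FPKM after PBS and 6.02, 4.12 and 5.63 FPKM after CTX. Without CTX replicate 2 its log2 fold change went from 0.40 to 0.56 (adjusted p = 0.034 from limma). E2f8, the other repressor, had 8.22, 5.32 and 6.85 FPKM after CTX against 5.63 to 6.40 FPKM after PBS, and E2f2 had 7.03, 4.87 and 5.75 FPKM after CTX against 5.03 to 5.55 FPKM after PBS.

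For the median gene, the SD of log2 values was 0.07 between PBS samples and 0.11 between CTX samples. CTX replicate 2 was the highest CTX sample in 18 genes, among them Cdt1, Pcna, Rpa1, Rpa2 and 5 of the 6 ring subunits, and the lowest in 19, among them Rrm2, Tyms, Tk1, E2f2, E2f7 and E2f8. CTX replicate 1 was highest in 13 and lowest in 21, and CTX replicate 3 highest in 15 and lowest in 6. Over all genes tested, the highest CTX sample was replicate 1, 2 or 3 in 37.2%, 41.3% and 21.5%, and the lowest in 35.8%, 37.6% and 26.7%.

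**Figure D3:**
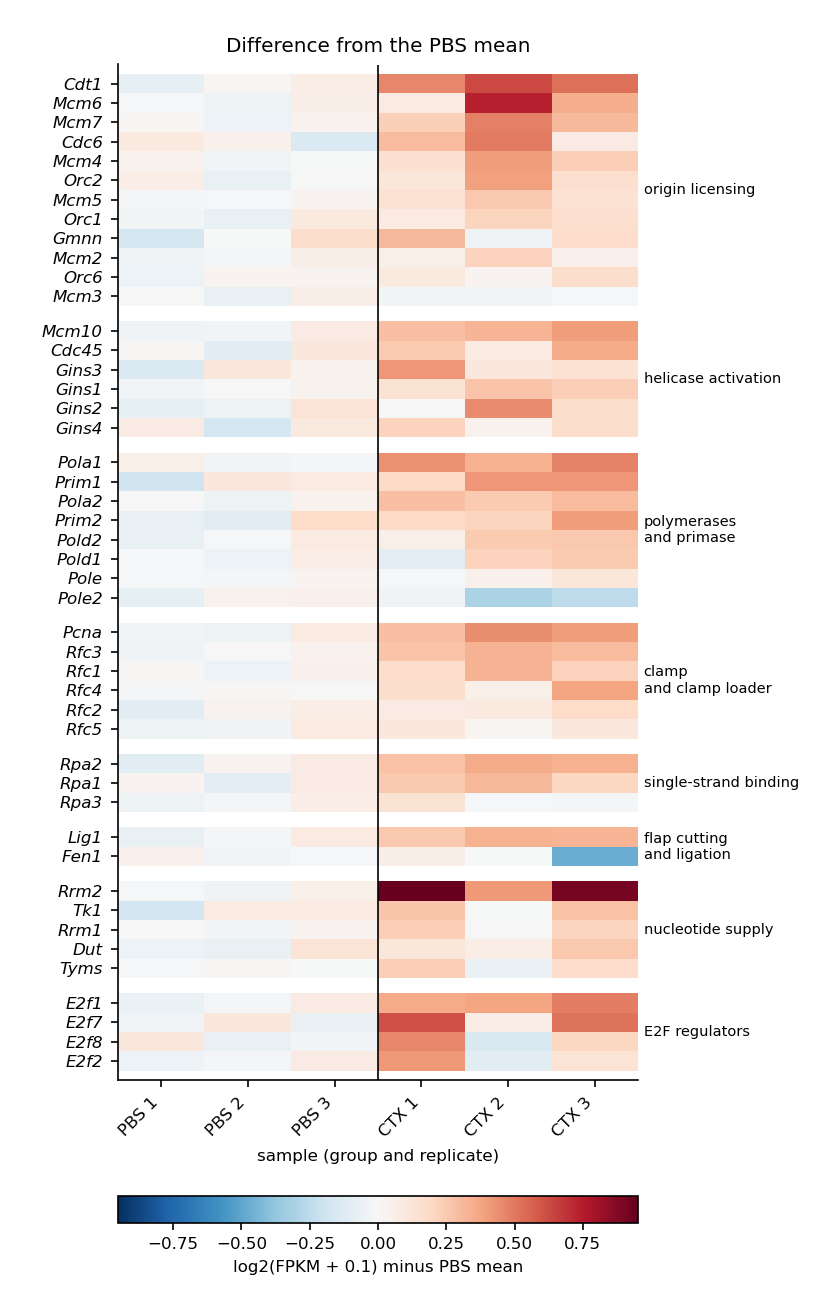
Difference of log2(FPKM + 0.1) from the PBS mean for the 46 genes (rows, by role) in each of the 6 samples (columns), red above and blue below. The CTX columns are mostly red, with CTX 2 darkest for Mcm6 and near white for Tyms, Tk1 and E2f7, and the CTX 3 value of Fen1 is blue.

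The promoter letters were set beside these values. The 15 genes with an E2F match had a median log2 fold change of 0.29, with 13 above 0, and the 23 genes with a window but no match had 0.20, with 22 above 0. Both Cdt1, which rose, and Pole2, which had the lowest value, carry a match, and Rrm2 and E2f1 carry none of the letters sought. That does not show that these 2 genes lack an E2F site. The 37 genes that share at most 10% of their exon bases with other genes had a median of 0.23, and in 18 of them the groups did not overlap.

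A list of 65 further genes of replication and its control had a median log2 fold change of 0.13, with 48 values above 0, and 2 genes called higher, against 1.40% of all genes. Dtl, which encodes the adaptor that marks CDT1 for destruction on PCNA-bound DNA, rose from 4.22, 4.28 and 4.04 FPKM to 6.20, 6.31 and 5.98 FPKM (log2 fold change 0.55, adjusted p = 0.022 from limma). Rb1, the retinoblastoma protein that holds E2F1 inactive, rose from 12.9, 12.3 and 12.2 FPKM to 17.0, 17.8 and 18.4 FPKM (log2 fold change 0.50, adjusted p = 0.020 from limma). Dtl kept its call in 13 of 19 alternatives and Rb1 in 14. Both lost it with the replicate block and without PBS replicate 1, 2 or 3 or CTX replicate 3, and Dtl also with FPKM total scaling. In this list 23 genes were higher in every CTX sample, against 15.0% of all genes, and 4 were lower in every CTX sample, against 14.1%. The lowest value was that of Ccna2, cyclin A2 of S phase and G2, with 31.0, 30.9 and 33.6 FPKM after PBS and 26.8, 18.5 and 26.0 FPKM after CTX, which did not pass (log2 fold change -0.44, adjusted p = 0.195 from limma).

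Mitosis genes, the next program of the cell cycle, lay on the other side of 0. The median log2 fold change of 34 such genes was -0.35, 33 values were below 0, and in 19 every CTX sample lay below every PBS sample, against 14.1% of all genes. In limma, 0 of them passed the adjusted p-value, against 1.76% of all genes, and voom called 2, against 2.00%. At an unadjusted p-value below 0.05, limma gave 15 lower, against 9.10% of all genes, and 0 higher, against 10.5%. Plk1, a kinase of mitotic entry, had 38.3, 41.0 and 39.4 FPKM after PBS and 28.0, 19.0 and 24.2 FPKM after CTX. The median mitosis gene lay at -0.15, -0.74 and -0.20 relative to the PBS mean in CTX replicates 1, 2 and 3, so that CTX replicate 2 was far from the others, while the median over all 46 replication genes was 0.21 to 0.23 in all 3. Within the replication genes the roles differed in this, since CTX replicates 1, 2 and 3 had medians of 0.44, -0.02 and 0.35 for the E2F regulators and of 0.13, 0.32 and 0.16 for origin licensing. Without CTX replicate 2 the median of the mitosis genes was -0.16, and limma called 5 of them lower, against 1.15% of all genes in that fit. A list of 29 genes of crosslink and homologous repair had a median of 0.06. Limma called 0 of them, against 1.76% of all genes, and voom called 1, against 2.00%. At an unadjusted p-value below 0.05, limma gave 4 higher and 3 lower, against 10.5% and 9.10% of all genes. The differences between lists were not tested.

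**Figure D4:**
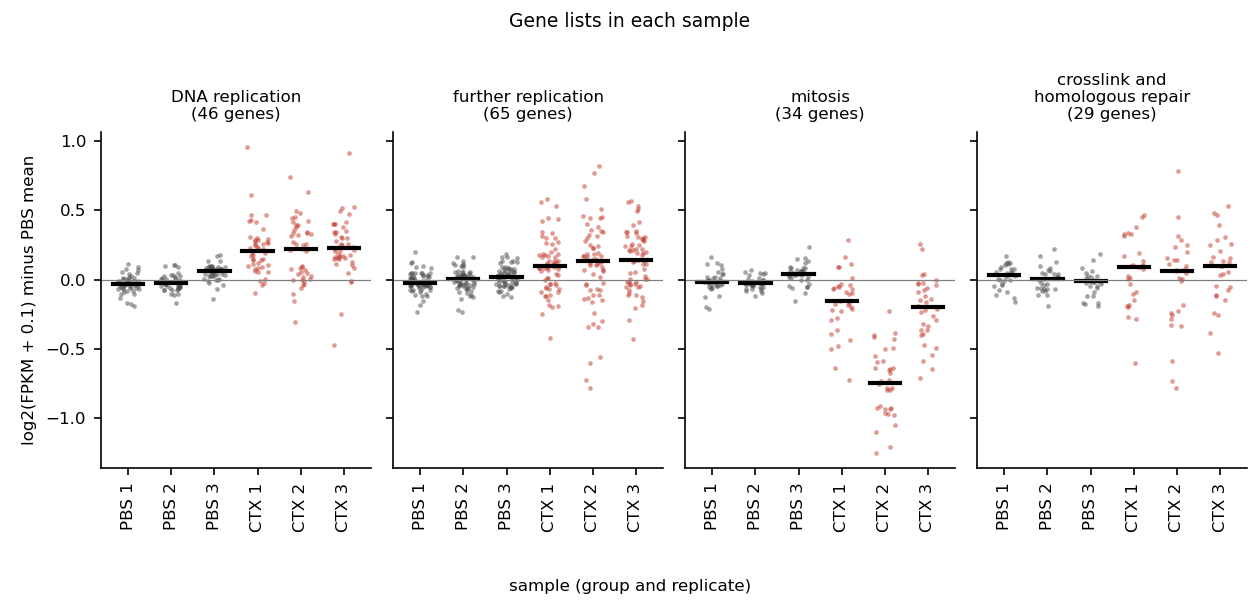
Difference of log2(FPKM + 0.1) from the PBS mean in each sample for the 46 DNA replication genes, 65 further replication genes, 34 mitosis genes and 29 crosslink and homologous repair genes. Each point is a gene and each black line the median, which in CTX samples is 0.21 to 0.23 for replication and -0.74 to -0.15 for mitosis.

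Markers of other cells moved with treatment in part. The 7 leukocyte markers summed to 18.5 to 21.9 FPKM in PBS samples and 22.4 to 62.3 FPKM in CTX samples, highest in CTX replicate 2, with 2 of the 7 free of overlap and Cd3e at 3 reads or fewer in every sample. The 10 granulosa markers summed to 12219 to 13468 FPKM after PBS and 10926 to 11669 FPKM after CTX, with 7 lower and 1 higher in every CTX sample. The 6 endothelial markers summed to 5.54 to 6.26 FPKM after PBS and 2.39 to 5.09 FPKM after CTX, with 2 lower in every CTX sample. The 4 theca markers summed to 35.5 to 38.2 FPKM after PBS and 8.84 to 34.2 FPKM after CTX, and 1 was lower in every CTX sample. Oocyte markers (34.1 to 73.5 FPKM after PBS, 47.8 to 85.0 FPKM after CTX), stromal markers (12.6 to 13.4 and 6.00 to 25.2 FPKM) and erythroid markers (299 to 429 and 130 to 467 FPKM) overlapped. The lowest sums of the theca, endothelial, stromal and erythroid markers were all in CTX replicate 2, so that sample differed from the other CTX samples in these markers. The part of cell make-up in the values of the replication genes was not tested.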

How the data were processed

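Total RNA of GCs was sequenced from 3 PBS and 3 CTX samples, grouped by their labels. The authors deposited FPKM values per gene, with gene lengths and GRCm38 coordinates. Per the labels, the submitters' processing notes name CASAVA 1.8, fastp, HISAT2 2.0.5, featureCounts 1.5.0-p3, DESeq2 1.20.0 and mm10, and strandedness is not given in the sources used here. The table also holds the authors' group means, fold changes and p-values, which were not used, and 0 per-sample columns were left unused. Multiplied by gene length, 100% of values above 0 were whole multiples of 1 read (within 0.001), so reads could be rebuilt. The depth implied by the FPKM values was 0.982 (CTX replicate 1) to 1.03 (PBS replicate 2) times the reads on genes. The deposited values thus carry a scaling per sample beyond that total.

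Of 54532 genes, the 14463 whose FPKM averaged 0.5 or more were compared as log2(FPKM + 0.1) with limma 3.58.1 (eBayes with trend) in R 4.3.3, and p-values were adjusted by Benjamini-Hochberg over all of them. The added 0.1 makes fold changes of genes with low FPKM too small. A gene was called at an adjusted p-value below 0.05. p-values measure the spread between pooled samples. The 46 genes and the lists were chosen with earlier results of these data known. All 46 genes were described, and of the further replication list those that passed, with at most 5 in each direction. Values in every sample were due for members that passed and for the 3 with the highest and the 3 with the lowest fold changes. Rrm2b, Cdkn1a, Ccna2 and Plk1 were named, and the members whose samples are given one by one beyond that rule were picked, after values were seen. Shared exon bases were counted in GENCODE M21, without regard to strand. Alternatives were pseudocounts 1 and 0.01, other filters, 4 scalings, a replicate block, arrayWeights, no trend, protein-coding genes, voom on rebuilt reads and each sample left out. Leaving out genes with shared exons was added after seeing the data. Python 3.11.15, pandas 2.3.3 and matplotlib 3.10.9 were used.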

Additional observations from a re-analysis of the deposited data

How the results depend on the processing

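The median log2 fold change of the 46 replication genes was above 0 in every alternative run, from 0.14 to 0.24. Scaling to FPKM totals gave the 0.14, while it moved the median of all genes to -0.08. That scaling also gave a median of 0.055 for the further list and -0.010 for crosslink repair, and left 16 replication genes higher and 2 lower in every CTX sample, against 9.42% and 22.2% of all genes. The number of replication genes called was 1 in the reported fit, against 1.76% of all genes. It was 2 with pseudocount 1, against 1.92%, and 2 with protein-coding genes only, against 2.52%. At a mean FPKM of at least 5 it was 2 of 40, against 2.79%, and with voom it was 3, against 2.00%. Without the trend it was 0, against 1.45%, with 18 at an unadjusted p-value. The unadjusted share of all genes in that fit was not worked out. With over 2-fold required it was 0, against 0.961%, and with unadjusted p-values it was 18, against 19.6%. With arrayWeights, which put 16.6 on CTX replicate 3 and 0.163 on CTX replicate 2, it was 37, with 35 higher and 2 lower, while 19.4% of all genes were called higher and 20.4% lower. Over all genes tested in each fit, 39.8% were called with arrayWeights and 1.65% with FPKM totals. With protein-coding genes only it was 2.52%, and with voom 2.00%. The further list gave 39 calls with arrayWeights and 1 with FPKM totals, against 2 in the reported fit. Mitosis genes gave 18, 1, 1 and 2 calls with arrayWeights, FPKM totals, protein-coding genes only and voom, against 0, and crosslink repair genes 13 with arrayWeights and 1 with voom, against 0. The cause was not tested.

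With each sample left out, 0 to 5 replication genes and 0 to 3 genes of the further list were called. For mitosis it was 0 to 5 and for crosslink repair 0 to 1, while 0.484% to 3.64% of all genes were called. In those fits 23 to 34 replication genes did not overlap, against 34.8% to 48.8% of all genes. Medians ranged from 0.19 to 0.24, 0.10 to 0.13, -0.48 to -0.16 and 0.034 to 0.098. Genes near 0 changed sign, namely Pole (-0.021) and Rpa3 (-0.037) with FPKM totals, Mcm3 (0.0046) and Rpa3 (-0.00404) with arrayWeights, and with a sample left out Mcm3 (-0.058 to 0.0091), Rpa3 (-0.013 to 0.073) and Fen1 (-0.24 to 0.029).

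With the replicate block, 0 replication genes were called (19 at an unadjusted p-value) and 0 of the further list (14 at an unadjusted p-value). Over all genes, 0.366% were called in that fit, and the share at an unadjusted p-value was not worked out. Samples that share a number hold different mice, and the correlations of their deviations from the group means were 0.056, 0.024 and 0.0058. Those of samples with different numbers ran from -0.076 to 0.059, so no clear pairing by number was seen. The labels name no batch, and such correlations cannot exclude one that touched only some genes. Not every sample correlated best with its own number. Each replication gene had at least 71 reads in every sample.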
